A study of Homo sapiens with 4 samples.

Results

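DNA methylation is written by DNA methyltransferases, copied at each replication and removed through oxidation by TET enzymes, and 10 genes of this machinery were followed in a myeloma cell line with and without BCL7A. The genes were chosen by name from the 56809 gene rows of 1 count table. They comprise the maintenance methyltransferase DNMT1 and its recruiter UHRF1, the de novo methyltransferases DNMT3A and DNMT3B, and the dioxygenases TET1, TET2 and TET3. The other members are the nucleosome remodeller HELLS, its partner CDCA7, and ZBTB24, a zinc finger protein known to activate CDCA7 transcription. All 10 were found and all 10 passed the filter on low counts. The cells were NCI-H929, an established human multiple myeloma line that carries the t(4;14) translocation and was made to express Cas9. Poly(A) RNA was sequenced from 2 libraries of cells that carried an inducible construct for knockout (KO) of BCL7A, switched on by doxycycline, and from 2 control libraries. The protocol gives the controls a control construct, whereas titles and genotype labels call them wild type, and the labels do not settle which holds. Both groups are described as selected with puromycin for 3 days and then kept in 0.5 ug/ml doxycycline for 24 h, so Cas9, selection and doxycycline were shared if the protocol holds. Nothing in the labels says whether KO cells were 1 clone or a pool, or whether cultures were separate for the 2 libraries within a group. P-values therefore reflect library-to-library spread alone, and this may be technical.

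UHRF1 recognises DNA that carries the methyl mark on the old strand only, which arises when a replication fork passes, and brings DNMT1 to copy it to the new strand. In densely packed chromatin this copying needs HELLS, an ATP-driven remodeller that has little activity until CDCA7 binds it and directs it to nucleosomes. DNMT3A and DNMT3B set new marks in development, and TET enzymes oxidise methylcytosine so that it can be lost by repair or dilution. Inherited defects in DNMT3B, ZBTB24, CDCA7 or HELLS each cause ICF syndrome, an immunodeficiency with hypomethylated repeats near centromeres. BCL7A belongs to BAF (SWI/SNF) remodelling complexes, which are distinct from the CDCA7-HELLS complex. The comparison of KO with control libraries is applied here to the genes of DNA methylation. In this design, loss of BCL7A and any other difference between the KO and control cells cannot be told apart.

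The region around the start site is shown for the 4 members whose RefSeq promoter windows held a searched motif, since CDCA7 went one way and DNMT1, UHRF1 and HELLS the other. The windows run from 250 bases before to 30 bases after the annotated start, 5′ to 3′ on the gene's own strand (RefSeq, GRCh38.p14). Capitals mark matches to an E2F motif (TTTCCCGC, TTTGGCGC, TTTGGCGG or TTTCGCGC) or, in CDCA7, also to CAGGACCT, the core of the motif bound by ZBTB24. Both strands were searched, so an E2F match on the other strand appears as its reverse complement. CDCA7 lies at chr2:173354622-173354901 on the plus strand, DNMT1 at chr19:10194924-10195203 on the minus strand, UHRF1 at chr19:4909251-4909530 on the plus strand and HELLS at chr10:94545538-94545817 on the plus strand.
CDCA7: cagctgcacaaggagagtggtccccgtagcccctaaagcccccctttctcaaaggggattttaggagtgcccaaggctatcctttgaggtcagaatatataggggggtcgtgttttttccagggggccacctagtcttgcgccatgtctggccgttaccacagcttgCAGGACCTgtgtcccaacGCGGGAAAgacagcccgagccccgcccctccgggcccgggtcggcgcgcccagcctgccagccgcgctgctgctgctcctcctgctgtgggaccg
DNMT1: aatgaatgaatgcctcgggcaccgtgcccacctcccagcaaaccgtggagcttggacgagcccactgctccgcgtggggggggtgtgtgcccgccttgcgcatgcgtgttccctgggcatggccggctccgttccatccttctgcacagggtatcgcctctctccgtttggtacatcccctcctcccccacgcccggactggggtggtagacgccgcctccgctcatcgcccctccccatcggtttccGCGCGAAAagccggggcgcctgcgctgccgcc
UHRF1: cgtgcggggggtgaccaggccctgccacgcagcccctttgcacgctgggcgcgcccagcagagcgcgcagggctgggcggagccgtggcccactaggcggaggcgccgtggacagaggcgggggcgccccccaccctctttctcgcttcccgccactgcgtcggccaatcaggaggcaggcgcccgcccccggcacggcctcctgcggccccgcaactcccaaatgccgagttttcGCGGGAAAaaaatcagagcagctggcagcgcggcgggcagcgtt
HELLS: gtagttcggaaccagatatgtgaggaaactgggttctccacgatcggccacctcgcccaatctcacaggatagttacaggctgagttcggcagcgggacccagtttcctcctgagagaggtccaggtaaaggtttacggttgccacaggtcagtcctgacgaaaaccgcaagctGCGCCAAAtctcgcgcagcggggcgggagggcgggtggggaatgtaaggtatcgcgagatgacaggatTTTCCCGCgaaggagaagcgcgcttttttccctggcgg

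In CDCA7 the ZBTB24 match began 83 bases before the start and the E2F match 65 bases before it, with no overlap between them. DNMT1 had its E2F match 2 bases before the start, running across it, and UHRF1 14 bases before it. HELLS held a pair, 76 and 8 bases before the start. The motif search covered all 21 RefSeq windows of the 10 members in their full length of 300 bases. A further UHRF1 window held an E2F match, and no window of another member matched either motif. The only DNMT3B window (chr20:32779602-32779901) lies inside the gene, whose span starts at 32762385. The windows of DNMT1, UHRF1 and HELLS likewise lie inside their gene spans, whose first starts are at 10231286, 4903080 and 94501434. Sequence at the first start of DNMT3B, DNMT1, UHRF1 and HELLS was therefore not searched. CAGGACCT occurred in 1.56% of all 35116 promoter windows of that length and any of the 4 E2F motifs in 3.35%. These shares count windows, of which 1 of the members' 21 held CAGGACCT and 5 an E2F motif. A gene with several windows has more chances of a match. Each E2F motif contains CG, and the member windows with a match held 20 to 40 CpG, against a median of 14 over all windows. A match describes letters and shows no binding.

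The KO libraries held 38671744 and 40799624 gene counts, the control libraries 17567202 and 20153596, and depth is therefore tied to group. Levels are given as CPM, counts scaled to library size with TMM factors, with mean ± SD over n = 2 libraries. Log2 fold changes set KO against control, positive where KO is higher, with a standard error (SE), and a gene passed the test at an adjusted p under 0.05 in edgeR's quasi-likelihood test over all 17885 tested genes. BCL7A itself was 1.31 and 1.19 CPM in the KO libraries and 43.0 and 45.7 CPM in the control libraries, which goes with the labels. The groups differed widely: 76.2% of tested genes passed the test, 36.4% higher and 39.8% lower in KO, and the groups did not overlap in CPM in 87.4% of genes. The plasma cell markers SDC1, IRF4, PRDM1, XBP1 and TNFRSF17 were present in every library, and all 10 markers on that list were higher in KO, with summed levels of 13150 to 13160 CPM against 7729 to 7758 CPM. The labels call the cells B lymphocytes, but mature B cell markers summed to 62.4 to 65.1 CPM in KO and to 518 to 530.3 CPM in control, with 7 of 8 tested members lower and 1, CD79B, higher. Among T and NK cell markers, 5 of 5 tested genes were lower in KO (summed level 14.6 to 14.7 against 29.5 to 31.7 CPM). CD3E made up most of these sums (13.9 ± 0.18 against 23.9 ± 0.67 CPM), and CD3D had no counts in any library. Epithelial markers summed to 12.5 to 13.2 against 66.5 to 71.2 CPM, with 2 of 5 tested genes lower and 1 higher. EPCAM, which made up most of the control sum at 52.9 ± 2.12 CPM, had 0 counts in both KO libraries and was at least 1270-fold higher in control. Myeloid markers summed to 1.60 to 2.22 CPM over all libraries, with 2 of 3 tested genes higher and 1 lower, and MPO had no counts. The part of these differences in the results on the 10 genes was not tested, and in bulk RNA fewer cells with a transcript and less transcript per cell cannot be told apart.

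All 10 members passed the test, 4 higher and 6 lower in KO, and in none did the groups overlap. With 76.2% of all tested genes past the threshold and 87.4% without overlap, neither count sets the members apart from other genes. In 3 of the 10 the difference was at least 2-fold, against 32.9% of all tested genes. CDCA7 was absent from the KO libraries, DNMT3B was 3.34-fold lower and TET1 2.42-fold higher. DNMT1, UHRF1 and HELLS were 1.55-fold to 1.71-fold higher, and DNMT3A, TET2, TET3 and ZBTB24 were 1.15-fold to 1.56-fold lower. Their median log2 fold change was -0.21, beside -0.06 over all tested genes.

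**Figure D1:**
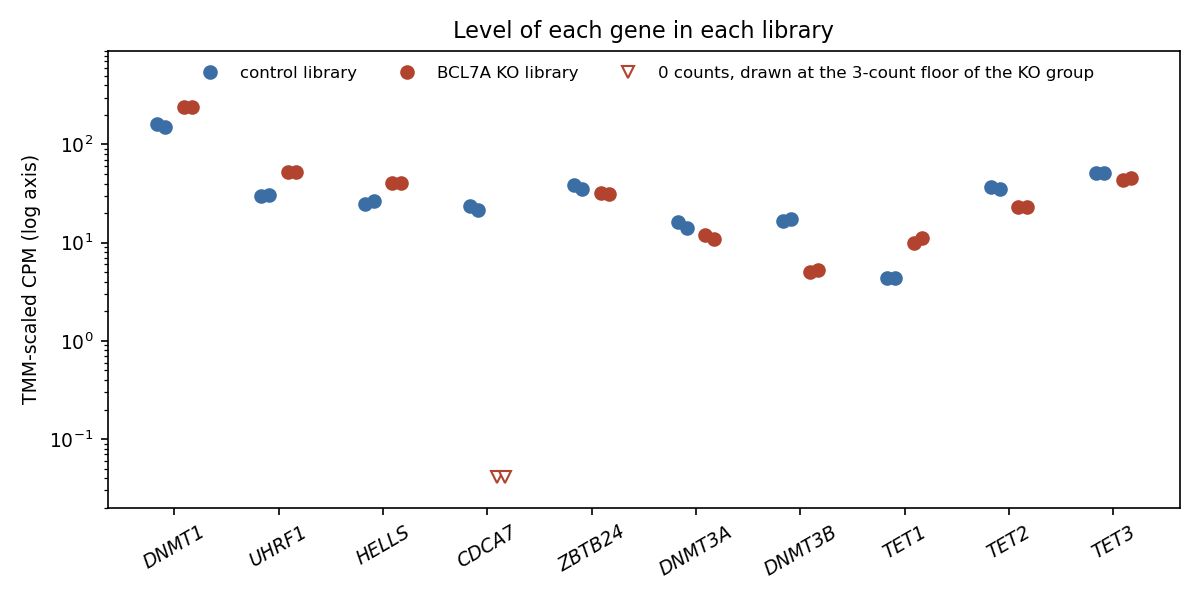
TMM-scaled CPM of each gene in each library on a log axis, with control libraries in blue and BCL7A KO libraries in red; open triangles stand for 0 counts and are drawn at the floor of 3 counts over the KO group, 0.0416 CPM. Libraries of 1 group lie close together for every gene, CDCA7 is missing from both KO libraries, and DNMT1 is the most abundant gene in all 4.

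Among the maintenance genes, DNMT1, which copies the methylation pattern after replication, was 241 and 239 CPM in the KO libraries and 161 and 149 CPM in the control libraries. Both KO libraries were above both controls, 1.55-fold on average (log2 fold change 0.63, SE 0.03, edgeR adjusted p = 5.70e-16). DNMT1 lies on chromosome 19, from 10133345 to 10231286 on the minus strand (GENCODE 29, GRCh38). UHRF1, its recruiter, was 52.0 and 52.1 CPM in KO and 30.2 and 30.6 CPM in control. The KO libraries were 1.71-fold higher (log2 fold change 0.78, SE 0.05, edgeR adjusted p = 2.10e-13), and the 2 libraries of either group differed by at most 0.02 on the log2 scale. UHRF1 lies on the same chromosome, from 4903080 to 4962154 on the plus strand. DNMT1 differed slightly less than UHRF1: DNMT1 per kilobase of transcript was 3.69 and 3.65 times UHRF1 in KO and 4.24 and 3.89 times in control.

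HELLS and CDCA7, partners in 1 remodelling complex, went in opposite directions. HELLS, the ATPase (chromosome 10, 94501434 to 94613905, plus strand), was 40.3 and 40.4 CPM in KO against 24.7 and 26.7 CPM in control. It was 1.57-fold higher in KO, with no overlap (log2 fold change 0.65, SE 0.06, edgeR adjusted p = 1.26e-10). CDCA7, the subunit that activates and targets HELLS (chromosome 2, 173354820 to 173368997, plus strand), had 0 counts in both KO libraries. In the control libraries it had 454 and 478 counts, or 23.5 and 21.5 CPM (22.5 ± 1.38, SD, n = 2). Against a floor of 3 counts over the KO group, 0.0416 CPM, it was at least 540-fold higher in control (edgeR adjusted p = 5.75e-22). That bound covers counting error only. The KO libraries were the deeper ones. Loss of every count was not particular to CDCA7: 238 genes with at least 1 CPM in control had no count in either KO library, 14 of them with a control level at least that of CDCA7 (CDCA7 included), while 1 gene showed the reverse.

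ZBTB24, the activator of CDCA7 (chromosome 6, 109462594 to 109483237, minus strand), was still well expressed. It was 31.9 and 31.1 CPM in KO and 38.2 and 35.2 CPM in control, lower by 1.17-fold (log2 fold change -0.22, SE 0.06, edgeR adjusted p = 0.00167). The control libraries differed from each other by 0.12 on the log2 scale, so the group difference was less than 2 times the replicate difference. It also depended on the scaling, from -0.13 without a filter on low counts to -0.35 with upper-quartile factors, although it passed the test throughout. CDCA7L, the paralog of CDCA7, went the other way from CDCA7: it had 1054 and 1162 counts in KO and 191 and 272 in control. This made 30.7 ± 1.01 against 11.1 ± 1.68 CPM, 2.78-fold higher in KO (log2 fold change 1.47, SE 0.09, edgeR adjusted p = 5.97e-15). The RefSeq window of CDCA7L held neither motif.

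Of the de novo methyltransferases, DNMT3B differed far more than DNMT3A. DNMT3B (chromosome 20, 32762385 to 32809356, plus strand) was 5.04 and 5.25 CPM in KO and 16.8 and 17.6 CPM in control. The KO libraries were lower by 3.34-fold (log2 fold change -1.74, SE 0.11, edgeR adjusted p = 4.52e-14), against at most 0.07 on the log2 scale between libraries of 1 group. DNMT3A (chromosome 2, 25227855 to 25342590, minus strand) was 12.1 and 10.8 CPM in KO and 16.3 and 14.1 CPM in control. It was lower by 1.33-fold without overlap (log2 fold change -0.41, SE 0.10, edgeR adjusted p = 8.03e-04), but its control libraries differed from each other by 0.20. DNMT3L, the germline cofactor of both enzymes, had no counts in any library.

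Per kilobase of the longest annotated transcript, DNMT1 made up most of the methyltransferase mRNA in both groups. Its share of the DNMT family was 94.8% and 94.9% in the KO libraries and 84.2% and 83.3% in the control libraries. The share of DNMT3B was 2.48% and 2.60% in KO and 11.0% and 12.2% in control, and that of DNMT3A 2.71% and 2.45% against 4.86% and 4.48%. DNMT3A per kilobase thus stood at 1.09 and 0.941 times DNMT3B in KO and at 0.444 and 0.366 times in control. DNMT1 thus held a larger share in both KO libraries than in either control library, and the de novo pair stood at similar levels in KO and unequal ones in control. These shares rest on lengths and on counts summed over isoforms, and isoforms were not resolved.

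**Figure D2:**
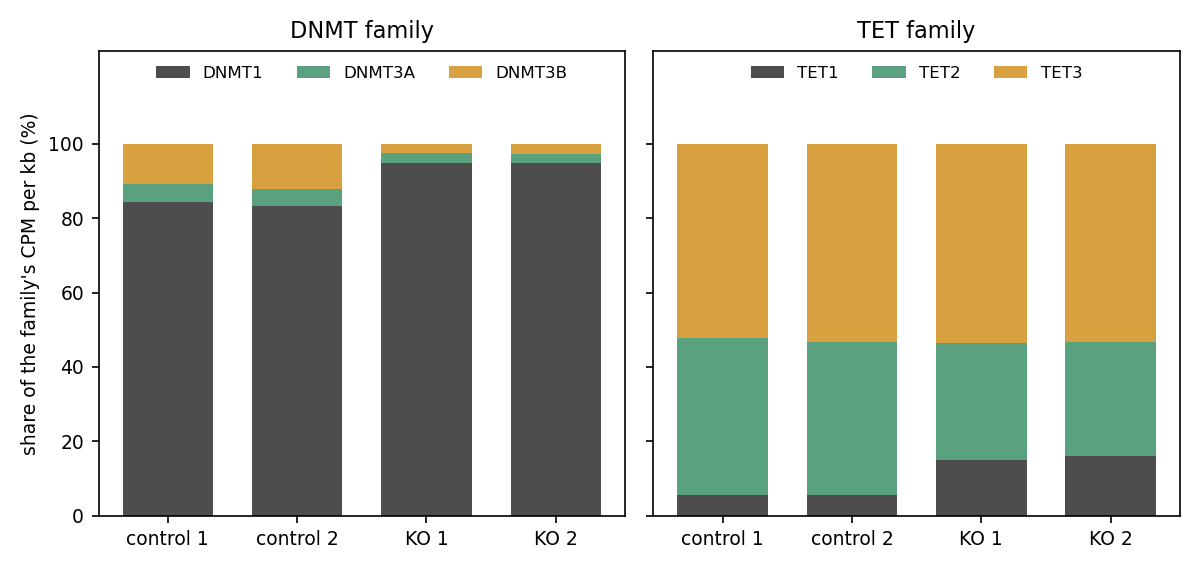
Share of each gene in the summed CPM per kilobase of the DNMT family (left) and the TET family (right), in percent, 1 bar per library. DNMT1 takes 83.3% to 84.2% of its family in control and 94.8% to 94.9% in KO, and TET1 takes 5.52% to 5.56% against 15.0% to 16.1%.

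The 3 TET genes did not move together. TET1, a dioxygenase with a CXXC domain that binds CpG-rich DNA (chromosome 10, 68560656 to 68694482, plus strand), was 10.0 and 11.1 CPM in KO and 4.40 and 4.33 CPM in control. It was 2.42-fold higher in KO (log2 fold change 1.28, SE 0.14, edgeR adjusted p = 1.82e-09), from 85 and 96 counts in the control libraries. TET2, the family member most often mutated in blood cancers (chromosome 4, 105145875 to 105279816, plus strand), was 23.0 CPM in both KO libraries and 36.9 and 35.0 CPM in control. It was lower by 1.56-fold (log2 fold change -0.64, SE 0.06, edgeR adjusted p = 3.18e-10), well beyond the replicate difference of at most 0.08. TET3 (chromosome 2, 73986404 to 74108176, plus strand) was 43.7 and 45.1 CPM in KO and 51.0 and 50.9 CPM in control. This 1.15-fold lower level was the smallest difference among the members (log2 fold change -0.20, SE 0.05, edgeR adjusted p = 7.52e-04). It ranged from -0.12 without a filter to -0.33 with upper-quartile factors, past the threshold in both.

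Per kilobase, TET3 remained the most abundant TET mRNA, with 53.4% of the family in both KO libraries and 52.2% and 53.3% in control. TET1 made up 5.52% and 5.56% in control and 15.0% and 16.1% in KO, and TET2 42.3% and 41.1% against 31.5% and 30.5%. The summed level of the 3 genes was 7.17 and 7.42 CPM per kilobase in KO and 8.58 and 8.38 in control. The summed level was below both controls in both KO libraries, and the shares and sums were not tested.

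**Figure D3:**
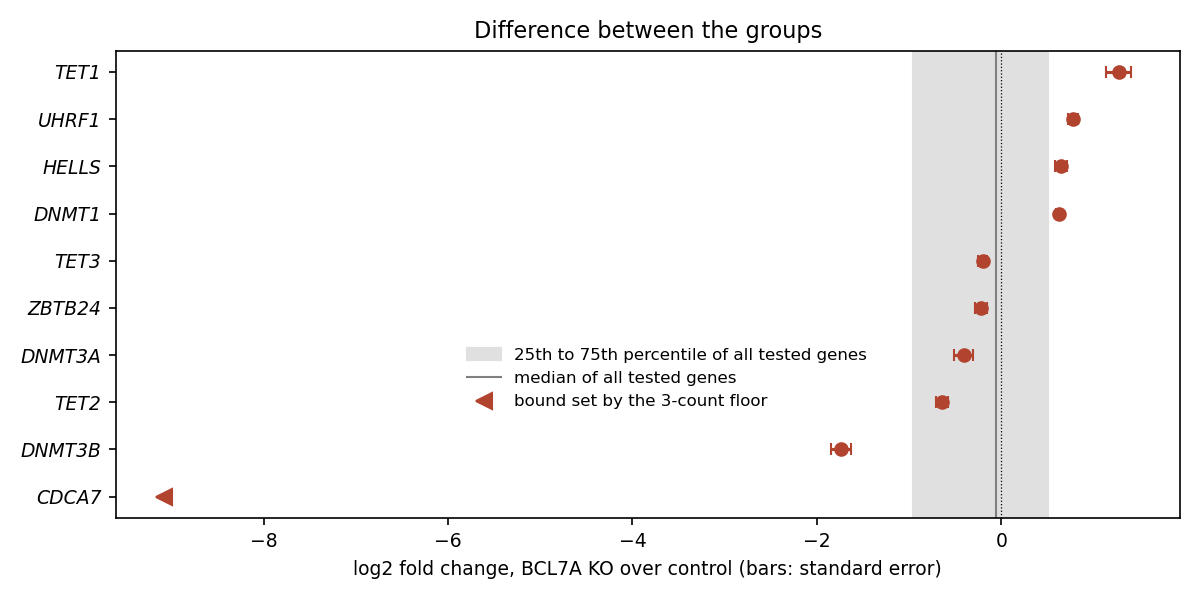
Log2 fold change of each gene, KO over control, with its standard error; the grey band spans the 25th to 75th percentile of all tested genes and the grey line marks their median, -0.06. CDCA7 is drawn at the bound of -9.08 that the floor of 3 counts gives; DNMT1, UHRF1, HELLS and TET1 lie right of the band and DNMT3B left of it, while DNMT3A, TET2, TET3 and ZBTB24 lie inside it.

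Ordered by level per kilobase in control, DNMT1 (28.7 CPM per kilobase) was followed by CDCA7 (8.07), UHRF1 (7.05), ZBTB24 (6.66), HELLS (5.15), TET3 (4.47), DNMT3B (3.96), TET2 (3.54), DNMT3A (1.60) and TET1 (0.470). No neighbours in that order overlapped over the 2 control libraries. In KO the order was DNMT1 (44.3 CPM per kilobase), UHRF1 (12.1), HELLS (8.09), ZBTB24 (5.71), TET3 (3.90) and TET2 (2.26). DNMT3A (1.21), DNMT3B (1.19) and TET1 (1.14) came next and overlapped, so these 3 could not be ordered. CDCA7 passed from second place in control to no counts in KO.

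The genes nearest to CDCA7 in pattern over the 4 libraries, by Euclidean distance of log2(CPM + 0.5), were ARHGAP15, SCCPDH and BGN (distances 0.146, 0.179 and 0.181). ARHGAP15, on chromosome 2, was 23.1 ± 0.41 CPM in control and had 1 count in KO (ratio 1660, exact 95% counting interval 298 to 65700). BGN, which encodes the proteoglycan biglycan, was 20.8 ± 0.08 CPM in control and had none in KO. For TET1 the nearest genes were FLJ36000, ROBO3 and TRIM36 (0.0346, 0.103 and 0.131), each 2.40-fold to 2.65-fold higher in KO. With 4 libraries in 2 groups, such a likeness says little more than that level and fold are similar.

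Most genes beside CDCA7 did not share its loss. Of its 10 nearest tested genes, 5 on each side by start position, 6 were higher in KO and 3 lower, with a median log2 fold change of 0.71, beside 36.4% higher and 39.8% lower of all tested genes. The gene directly before it, MAP3K20, was 3.81 ± 0.88 CPM in KO and 0.842 ± 0.020 in control (log2 fold change 2.17, SE 0.26), and PDK1, a pyruvate dehydrogenase kinase gene, 441 ± 3.90 against 139 ± 1.28 (1.67, SE 0.03). ITGA6, an integrin gene, also rose (2.17, SE 0.16). The first gene after it, SP3, a transcription factor gene, was 87.8 against 100.2 CPM (-0.19). Only LINC01305, a non-coding gene with 11 and 20 counts in control, was also at 0 counts in KO among these 10. DNMT3B had a more mixed setting, with 3 of 10 neighbours higher and 5 lower (median -0.39). NOL4L before it was 5.16 ± 0.79 against 19.0 ± 0.05 CPM (log2 fold change -1.88, SE 0.12), whereas CDK5RAP1 after it was 70.1 ± 1.96 against 33.8 ± 0.99 CPM (1.05, SE 0.05). FO393400.1 (-3.51, SE 0.56) and COMMD7 (-0.89, SE 0.08), nearer to DNMT3B than NOL4L, were also lower. MAPRE1, the first gene after DNMT3B, was higher (0.935, SE 0.03).

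**Figure D4:**
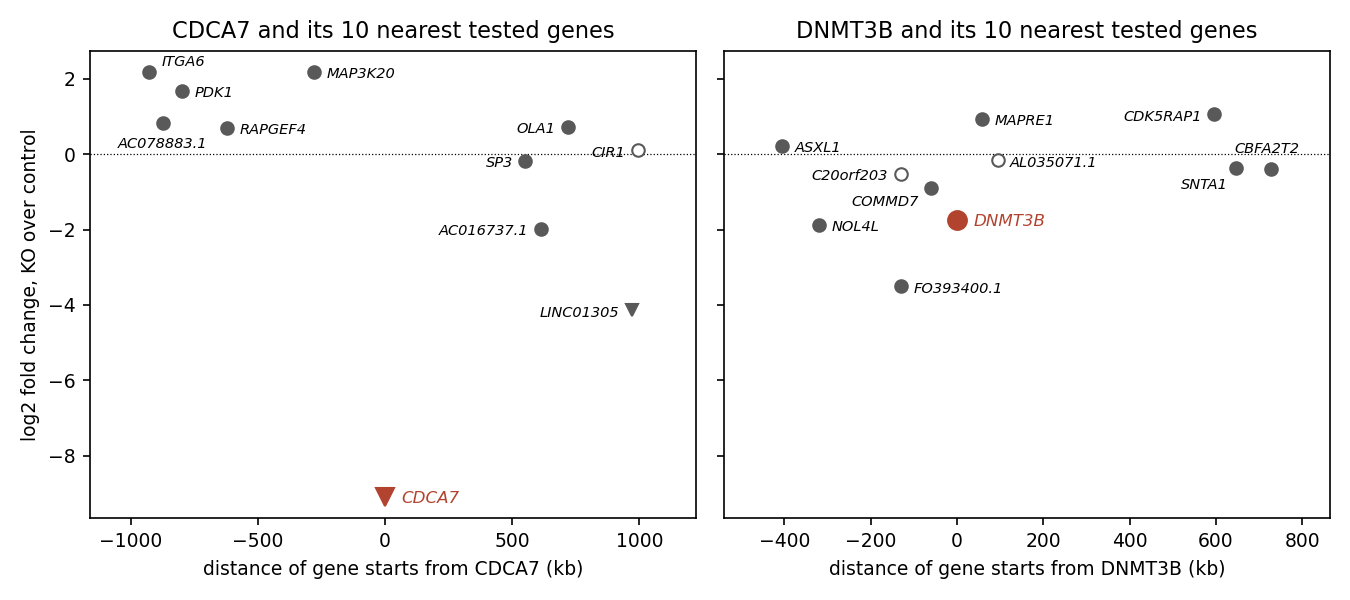
Log2 fold change, KO over control, of CDCA7 (left) and DNMT3B (right) in red and of their 10 nearest tested genes in grey, by distance of gene starts in kb; open circles did not pass the test, and triangles are bounds for genes with 0 counts in KO. Of the CDCA7 neighbours 6 are higher in KO; CDCA7 and LINC01305 are both drawn at bounds and cannot be ranked, and DNMT3B lies among neighbours that point both ways.

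Around the other members, neighbours were higher in 1 to 8 of 10 cases, beside 36.4% higher and 39.8% lower of all tested genes. Higher calls were most frequent beside UHRF1 (8 higher, 1 lower, median 0.35) and least so beside DNMT3A (1 higher, 5 lower, median -0.16). UHRF1 and its neighbour PTPRS, a receptor phosphatase gene (190.5 ± 5.36 against 58.1 ± 1.89 CPM), were both higher. Beside TET1, also higher, 4 neighbours were higher and 3 lower (median -0.02). AL513534.1 was among the higher ones (1.60, SE 0.33). STOX1 was among the lower, with 0 counts in KO and 62 and 81 in control (at least 82.3-fold higher there). Beside HELLS, also higher, 6 of 10 neighbours were higher and 3 lower (median 0.32), with CEP55 among the higher (1.84, SE 0.06). ENTPD1, whose start lies 1210 kb away, was lower, at 0.126 ± 0.063 CPM in KO and 35.7 ± 0.59 in control. Some counts may be shared: S1PR2 overlaps DNMT1, TBC1D12 overlaps HELLS and MICAL1 overlaps ZBTB24, each on the same strand. S1PR2 and TBC1D12 were lower in KO (log2 fold change -0.75 and -0.89) and MICAL1 higher (0.50), opposite to the member each overlaps. The overlaps of the remaining members were with genes of at most 2 counts in a library.

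Replication genes, which share E2F control with DNMT1, UHRF1 and CDCA7, were mostly higher in KO, so CDCA7 stood against the direction of the list. Of 32 genes, 23 were higher and 5 lower (median log2 fold change 0.53, beside 36.4% higher, 39.8% lower and a median of -0.06 over all tested genes; with upper-quartile factors 19 and 7, median 0.40). RRM2, a subunit of ribonucleotide reductase, was 302 ± 4.14 against 78.5 ± 2.12 CPM, 3.84-fold higher. CDT1, a licensing factor, was 4.39-fold higher, MCM10 3.66-fold, the transcription factor gene E2F2 3.16-fold, ORC1 of the origin recognition complex 2.92-fold and MCM6 of the replicative helicase 2.30-fold. The 5 that were lower, named after their values were seen, were MCM7, ORC6, RFC4, POLD1 and MCM2. The call on MCM2 was lost without the filter on low counts. Higher calls were lost too, on MCM3, POLE2, GINS1 and CHAF1B with upper-quartile factors. Among all 751 tested genes whose RefSeq window held an E2F motif, 48.9% were higher and 33.0% lower (median 0.15), beside 43.0% and 37.3% of the 11408 tested genes with a window (median 0.06). Of 231 tested genes with the ZBTB24 motif in a window, CDCA7 among them, 35.5% were higher and 45.0% lower (median -0.11).

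Genes listed as partners of DNA methylation were also mostly higher, 11 of 15 tested higher and 2 lower (median 0.45). With upper-quartile factors the counts were 10 and 3. The higher call on SUV39H1 was lost there, and also in DESeq2 and limma-voom. Over all tested genes 36.4% were higher and 39.8% lower. The list reaches beyond maintenance: NSD1 and SETD2 bear on DNMT3A and DNMT3B, and TRDMT1, also higher, mainly methylates tRNA. PCLAF, a PCNA-binding protein through which UHRF1 and DNMT1 act at replication forks, was 34.5 ± 0.98 against 13.8 ± 1.08 CPM, 2.51-fold higher. USP7, the deubiquitinase that stabilises UHRF1 and DNMT1, was 388 ± 8.97 against 251 ± 3.94 CPM, 1.54-fold higher. NSD1, a histone H3K36 methyltransferase whose mark is read by DNMT3A, was 1.84-fold higher, and the deacetylase gene HDAC1 was 144 ± 3.47 against 95.7 ± 3.43 CPM (log2 fold change 0.58, SE 0.04). SETD2, which writes the trimethylated form that DNMT3B binds, was lower, at 93.8 ± 0.14 against 147 ± 2.60 CPM (log2 fold change -0.65, SE 0.03). EHMT1, chosen after its values were seen, was the other lower gene (-0.22, SE 0.04). PCNA and EHMT2, chosen likewise, did not pass (log2 fold change 0.07 and -0.08, edgeR adjusted p = 0.0983 and 0.112).

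**Figure D5:**
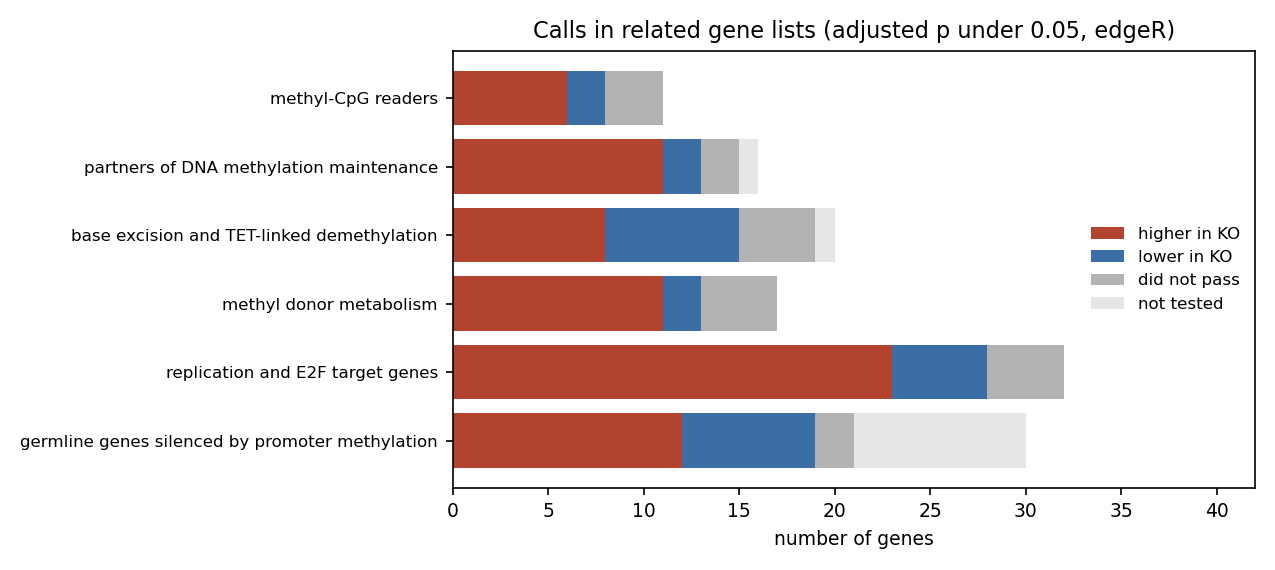
Number of genes in each of 6 related lists that were higher in KO, lower in KO, did not pass the test or were not tested. Higher calls outnumber lower ones in each list, by 23 to 5 in the replication list and by 8 to 7 in the demethylation list. With upper-quartile factors the demethylation list keeps its counts and the list of reader families stands at 5 to 4.

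Among genes of active demethylation, which follow TET oxidation, 8 of 19 tested were higher and 7 lower (median 0.10, and -0.04 with upper-quartile factors). These shares are near the 36.4% and 39.8% of all tested genes. TDG, the glycosylase that excises oxidised methylcytosine, was 104 ± 3.62 against 40.1 ± 1.64 CPM, 2.60-fold higher. IDH2, a mitochondrial source of the TET cosubstrate 2-oxoglutarate, was 170 ± 0.44 against 36.7 ± 1.03 CPM, 4.64-fold higher. The repair genes APEX1 and PARP1 were 1.61-fold and 1.48-fold higher. OGT, a sugar transferase that binds TET proteins, was lower at 782 ± 10.8 against 1344 ± 28.4 CPM (log2 fold change -0.78, SE 0.02). CXXC5, a CpG-binding partner of TET2, was 1.53 ± 0.25 against 23.9 ± 0.63 CPM (-3.97, SE 0.13).

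Genes of families that read methylated DNA differed little. The list follows family membership, and MBD3, MBD5 and MBD6 are not established readers of methylated DNA. Of 11 genes, 6 were higher and 2 lower (median 0.14), a balance that upper-quartile factors changed to 5 and 4 with a median of 0.01. The higher call lost there was that on MBD2. The share of these 11 genes that passed was near the 76.2% of all tested genes. ZBTB38 (log2 fold change 0.31, SE 0.03), MBD1 (0.28, SE 0.03), ZBTB33 (0.31, SE 0.04), MBD4 (0.29, SE 0.04) and ZBTB4 (0.29, SE 0.05) were higher by similar amounts. UHRF2, the paralog of UHRF1, was 69.1 ± 0.14 against 78.9 ± 1.23 CPM, lower (-0.19, SE 0.04) where UHRF1 was higher. MBD5, chosen after its values were seen, was the other lower gene (-0.24, SE 0.10), a call that was lost in 6 of 14 alternatives, DESeq2 among them.

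Enzymes that supply methyl groups were mostly higher, 11 of 17 higher and 2 lower (median 0.40; with upper-quartile factors 10 and 4), against 36.4% and 39.8% of all tested genes. The share that passed in either direction was near the overall 76.2%. MTHFD2, a mitochondrial folate enzyme, was 558 ± 6.42 against 254 ± 5.53 CPM, 2.20-fold higher. AHCY, which clears the product that inhibits methyltransferases, was 402 ± 3.69 against 207.5 ± 5.28 CPM, 1.94-fold higher. MAT2A, which makes the methyl donor S-adenosylmethionine, was 435.5 ± 1.40 against 331 ± 4.22 CPM (log2 fold change 0.40, SE 0.03). MTR and TYMS, chosen after their values were seen, were the lower ones (-0.29, SE 0.04, and -0.16, SE 0.04), and the call on TYMS was lost without the filter on low counts. The higher call on AHCYL2 was lost with upper-quartile factors and in DESeq2.

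Germline genes kept silent in body tissues by promoter methylation, and often active in myeloma, are set beside the enzymes here, although methylation itself was not measured. Of 30 such genes 21 were tested, 12 higher and 7 lower in KO (median 0.82 over those tested, and 0.01 over 29 genes without the filter on low counts), and all tested genes likewise went both ways, 36.4% higher and 39.8% lower. SSX1 was 90.4 ± 1.03 against 21.4 ± 0.50 CPM, 4.23-fold higher, and MAGEA6, MAGEA4 and MAGEA3 were 2.95-fold, 2.40-fold and 2.05-fold higher. MAGEA3 and MAGEA6 are near-identical and the MAGEA, SSX and CTAG families hold other close copies, so counts of single members are uncertain. TEX15, a meiosis gene chosen after its values were seen, was 8.31 ± 0.61 against 0.329 ± 0.172 CPM, 25.3-fold higher from 4 and 10 counts in control. Large differences the other way, chosen likewise, were seen in SSX2, MAGEA10 and PAGE1. SSX2 had 0 counts in both KO libraries and 40 and 29 in control. MAGEA10 was 24.4-fold and PAGE1 15.65-fold higher in control. CTAG2 was lower at 8.54 ± 0.97 against 53.2 ± 0.22 CPM (log2 fold change -2.64, SE 0.07). MAGEC2 was nearly lost, with 1 and 2 counts in KO against 280 and 268 in control (ratio 317, exact 95% counting interval 108 to 1540). Of the 9 genes that were not tested, none had more than 12 counts in a library.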

How the data were processed

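Per the labels' protocols, poly(A) RNA was made into stranded libraries. The authors deposited estimated counts for each gene symbol in 1 table; Salmon 0.12 and GRCh38 are named per the submitters' processing notes. Every value is a whole number, and none was altered. The annotation is not given in the sources used here. The same holds for the strand setting, which leaves overlapping genes uncertain. The 92 ERCC spike-in rows (6.8e-06% of counts) were left out.

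Genes were filtered with filterByExpr, scaled with TMM and compared in edgeR 4.0.16 (glmQLFit with robust=TRUE, glmQLFTest, Benjamini-Hochberg) without covariates, on 4 libraries. Alternatives were run with limma 3.58.1 and DESeq2 1.42.0 too, and the scripts were tested on simulated data. Between libraries of 1 group the chi-square over genes, divided by its degrees of freedom, was 1.79 in KO and 2.43 in control. These values were above counting noise, so each library was counted as 1 sample, but this does not show separate cultures. The coefficient of variation beyond counting noise that edgeR fitted was 2.32%, a small spread that may be technical. Positions and transcript lengths came from GENCODE 29, promoters from RefSeq.

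The members and lists were chosen with earlier results of these data known. Genes named are the members, BCL7A, up to 6 genes per related list by smallest p, list genes at 0 counts in 1 group with at least 5 CPM in the other, the 3 genes nearest in pattern to the highest and lowest member, and flanking genes that passed with at least a 2-fold change. The cell type marker lists and SP3, as the nearest gene after CDCA7, were added for context. Markers and overlapping genes serve as checks. Values of some listed genes are not reported here.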

Additional observations from a re-analysis of the deposited data

How the results depend on the processing

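Every alternative kept all 10 members past the threshold in the same direction, 4 higher and 6 lower. The alternatives tried were scaling by RLE or by upper-quartile factors, dropping the filter, a stricter filter (mean count of at least 10 and 1 CPM in 2 libraries), DESeq2, limma-voom, no robust shrinkage, each library left out in turn, thinned KO counts and the replicate block. At a threshold of 0.01 in the reported fit all 10 still passed. Scaling by the upper quartile shifted the median over all tested genes by -0.13 (log2), and dropping the filter shifted values the opposite way, by 0.083. Such shifts bear most on TET3 and ZBTB24. The differences of these genes grew with upper-quartile factors and shrank without the filter, where their adjusted p in edgeR was largest, 0.048 and 0.0466. Over the alternatives, DNMT3B ranged from -1.87 to -1.66, TET1 from 1.13 to 1.36, DNMT1 from 0.50 to 0.71, UHRF1 from 0.64 to 0.86, HELLS from 0.52 to 0.73, TET2 from -0.78 to -0.56 and DNMT3A from -0.54 to -0.31. With the replicate block, 13287 rather than 13629 of all genes passed; the alternatives spanned 11685 (DESeq2) to 14837 (no filter). The labels do not say that a number marks a shared culture, and deviations of same-numbered libraries correlated at -0.198 across 9537 genes. A crossed replicate block, added after seeing the data, gave 13359 genes. Control depth limits TET1 most, with 85 and 96 counts.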
